A study of Mus musculus with 80 samples.

Results

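The genes described here are those of the proteasome, the barrel-shaped protease that degrades proteins tagged with ubiquitin. They were taken from the rows of a mouse liver gene count table by symbol, as every name that begins with Psm, a letter from a to g and a number, with no pseudogene names and with at least 10 counts in 4 or more libraries. Of the 78275 rows, 50 met this rule, and 1 further name, Psmb11, had too few counts. All 50 passed the filter on low counts and were tested among 21187 genes. The livers came from C57BL/6J mice of both sexes, bought at 8 to 12 weeks of age and kept in a light and dark cycle for 10 days, moved to constant darkness and killed every 4 h from circadian time (CT) 8 to CT44. Control mice had chow throughout, and fasted mice had none after CT10, so that both groups still had food at CT8 and the fast had lasted 2 h at CT12 and 34 h at CT44. Each treatment and time had 2 males and 2 females, 80 libraries in all, with strand-specific libraries of polyadenylated RNA from the left lobe. No genetic change is labelled for any mouse, and the labels say that they were group-housed but not which mice shared a cage, so that p-values measure only the spread between these mice.

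The 20S core is a stack of 4 rings. The outer rings are built from 7 alpha subunits, which gate the entry, and the inner rings from 7 beta subunits, of which Psmb5, Psmb6 and Psmb7 carry the proteolytic sites. The 19S regulatory particle caps the core: a base with 6 ATPases unfolds the substrate, and a lid removes the ubiquitin. Interferon induces a second set of catalytic subunits, Psmb8, Psmb9 and Psmb10, which replace the standard ones in newly assembled immunoproteasomes, together with Psme1 and Psme2, the subunits of the PA28 activator. In the liver these are abundant in immune cells and can be induced in hepatocytes. In fasting, the proteasome and autophagy both supply amino acids from protein, and the transcription factor encoded by Nfe2l1 raises the genes of all standard subunits together when proteasome capacity falls short.

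Total counts per library lay between 25534901 and 59927771 (median 42303883), and the 50 genes took 0.183% to 0.345% of them. In 1 control CT8 female library a ribosomal RNA gene, Rn18s-rs5, took 31.3% of the counts, against a median of 0.101% over all libraries. That library enters no fasting difference from CT12 on, other than through the spread that all groups share. It does enter the sex difference and the rhythms of control livers given below. Those were called for 33 and 30 genes with it and for 32 and 34 without it. In 80 of 80 libraries the sex-linked transcripts matched the title. The detailed labels contradict the titles about the sex of 40 libraries and the treatment of 40, and the titles were used. Albumin, the defining transcript of hepatocytes, was at 42410 CPM or more in every library. Levels are CPM, the counts scaled to library size after TMM normalisation, and changes are log2 differences (fasted minus control livers, mean of CT12 to CT44 unless a time is named) with their standard errors, called at an adjusted p under 0.05 in edgeR's quasi-likelihood test over all genes.

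Fasting raised most of the proteasome genes by a little and lowered the interferon-inducible ones by more. Of the 50 genes, 32 were higher in the fasted liver, where 29.5% of all genes tested were, and 13 were lower, where 32.9% were. Among the 31 standard subunits of the 20S core and the 19S particle, 28 rose, 1 fell and 2 were not called, with a median log2 difference of 0.25 (1.19-fold), while the median of all genes tested was -0.02. The interferon-inducible catalytic subunits Psmb8, Psmb9 and Psmb10 all fell, and the largest rise was that of Psmd9, an assembly chaperone of the 19S base. With a change of at least 1.2-fold asked for as well, 15 genes were higher and 7 lower. The share of all genes that passed this cut is not given here, so these counts have no background. Of 6 hepatocyte markers (Alb, Ttr, Apoa1, Cps1, Pck1 and Cyp2e1) 5 rose and 1 fell (median 0.61). Their summed level was 62660 to 112900 CPM in control livers (median 90640) and 82080 to 137900 in fasted ones (median 105800). A larger share of hepatocyte RNA and a response of these markers themselves to fasting cannot be told apart here. Their part in the rise of the standard subunits was not tested.

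**Figure D1:**
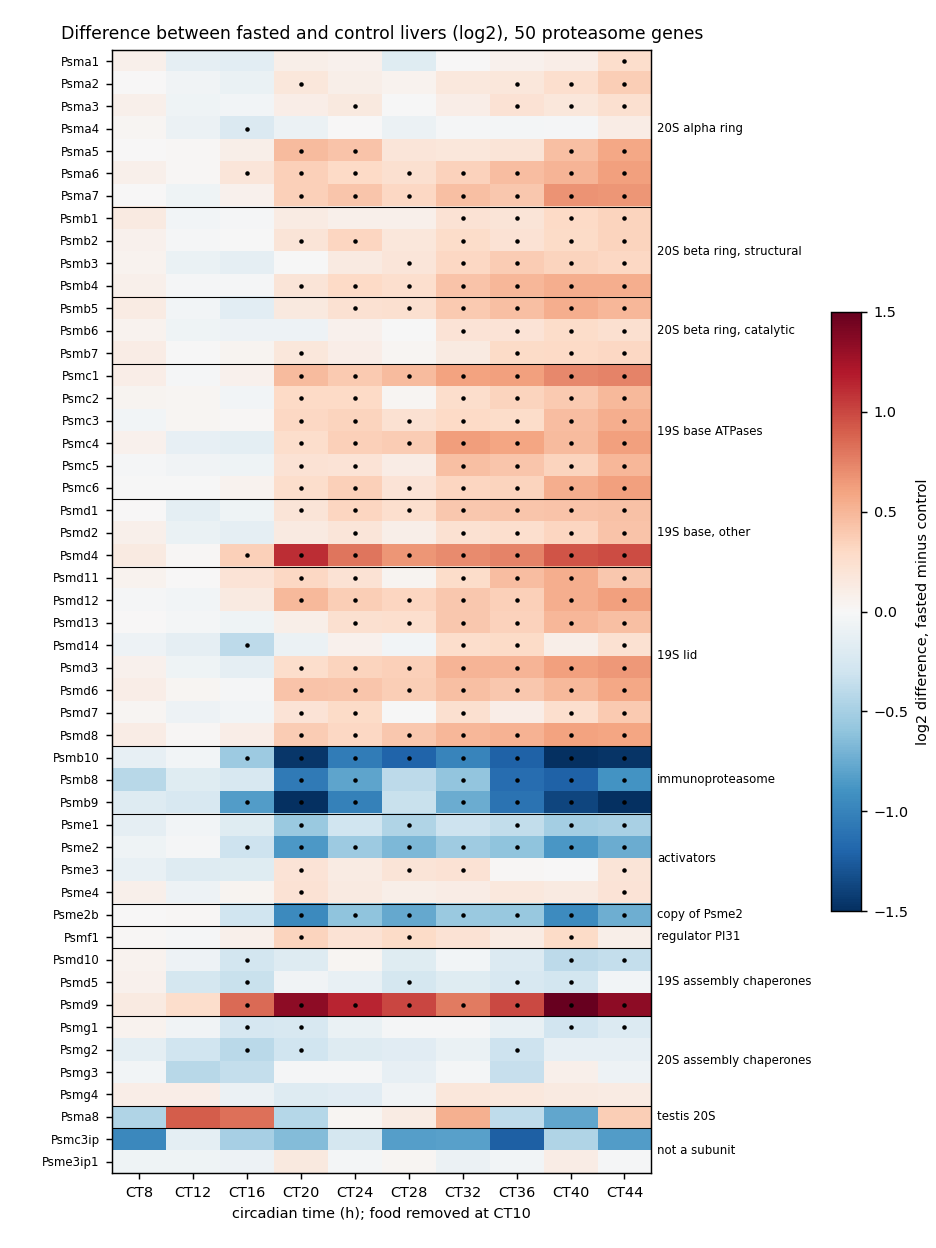
Log2 difference between fasted and control livers (colour, fasted minus control, colours end at 1.5 on either side) for the 50 genes (rows, grouped by their place in the proteasome) at each circadian time (columns, 4 fasted against 4 control mice), where a dot marks an adjusted p under 0.05. No dot falls at CT8 or CT12. Rows of most 20S and 19S subunits are red from CT20 (24 of 31 at every time). Psmb8, Psmb9, Psmb10, Psme1, Psme2 and Psme2b are blue from CT16.

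The promoters of 42 of the 50 genes were read from the RefSeq windows of GRCm38.p6, from 250 bases before to 50 after the start of transcription. The windows of Psmd9 (the largest rise, chr5:123227940-123228239, plus strand), Psmb5 (a standard catalytic subunit that rose, chr14:54617946-54618245, minus strand), Psmb10 (the largest fall, chr8:105938343-105938642, minus strand) and Psmb8 (the interferon-inducible counterpart of Psmb5, chr17:34197945-34198244, plus strand) are shown, 5′ to 3′, with motif matches in capitals.
Psmd9: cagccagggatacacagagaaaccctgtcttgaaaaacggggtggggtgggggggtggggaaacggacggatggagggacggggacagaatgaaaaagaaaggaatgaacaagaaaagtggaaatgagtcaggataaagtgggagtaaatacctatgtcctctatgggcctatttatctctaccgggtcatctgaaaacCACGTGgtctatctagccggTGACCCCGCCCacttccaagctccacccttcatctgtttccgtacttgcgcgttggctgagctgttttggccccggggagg
Psmb5: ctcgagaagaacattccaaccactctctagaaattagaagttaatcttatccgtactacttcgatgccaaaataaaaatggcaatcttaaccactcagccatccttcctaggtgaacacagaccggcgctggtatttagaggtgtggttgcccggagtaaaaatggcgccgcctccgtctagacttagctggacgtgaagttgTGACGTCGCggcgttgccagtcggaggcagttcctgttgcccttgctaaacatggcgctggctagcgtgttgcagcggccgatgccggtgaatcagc
Psmb10: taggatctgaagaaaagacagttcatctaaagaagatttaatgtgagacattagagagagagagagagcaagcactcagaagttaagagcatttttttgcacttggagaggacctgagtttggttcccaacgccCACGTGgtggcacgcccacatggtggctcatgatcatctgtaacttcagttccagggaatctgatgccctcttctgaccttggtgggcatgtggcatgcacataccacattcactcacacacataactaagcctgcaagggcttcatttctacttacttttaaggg
Psmb8: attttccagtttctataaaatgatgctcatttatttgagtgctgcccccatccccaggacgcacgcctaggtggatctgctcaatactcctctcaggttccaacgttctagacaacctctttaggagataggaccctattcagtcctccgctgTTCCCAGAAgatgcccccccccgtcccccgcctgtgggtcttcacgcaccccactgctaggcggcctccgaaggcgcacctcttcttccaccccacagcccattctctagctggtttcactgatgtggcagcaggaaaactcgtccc

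The capitals mark, in Psmd9, an E-box (CACGTG) that begins 51 bases before the start and, from 31 bases before it, the core of an antioxidant response element (TGACNNNGC), to which factors such as the product of Nfe2l1 bind, overlapped by a GC box (GGGCGG, on the reverse strand). In Psmb5 they mark the same core 47 bases before the start, in Psmb10 an E-box 116 bases before it, and in Psmb8 a gamma-activated site (TTCNNNGAA) 97 bases before it. Both strands were searched. Over the members, the antioxidant response core was in 6 of 42 (14.3%, against 12.4% of all 32851 windows), CCAAT in 15 (35.7% against 37.4%), the E-box in 5 (11.9% against 7.15%), the D-box core TTACNNAA in 2 (4.76% against 9.18%), the GC box in 24 (57.1% against 35.7%) and the gamma-activated site, which was added after the values had been seen, in 3 (7.14% against 8.3%). A few genes have more than 1 window, which lifts their share. The members with the antioxidant response core were Psmb5, Psmb6, Psmc6, Psmd12, Psmd9 and Psme4, all of which rose, as 32 of the 50 genes did. A match describes letters in the window and says nothing on binding.

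The 3 catalytic subunits of the standard core all rose, by 0.08 to 0.26 on the log2 scale. Psmb5, with the chymotrypsin-like site, rose by a log2 of 0.26 ± 0.02 (adjusted p = 7.28e-13), Psmb7, with the trypsin-like site, by 0.15 ± 0.02 (adjusted p = 4.18e-10) and Psmb6, with the caspase-like site, by 0.08 ± 0.02 (adjusted p = 0.000925). At CT44, Psmb5 stood at 35.2 and 34.4 CPM in control males, 31.9 and 30.0 in control females, 47.5 and 50.7 in fasted males and 45.8 and 41.2 in fasted females. The groups did not overlap, and both females of a treatment lay below both males. For Psmb6 at CT44 the control libraries held 71.7 to 77.8 CPM and the fasted ones 79.7 to 97.4, again apart. Psmb7 overlapped at that time, since 1 fasted female at 91.8 CPM lay below both control males (92.7 and 92.7). The 4 structural subunits of the beta ring, Psmb1 to Psmb4, all rose, from 0.14 for Psmb1 to 0.30 for Psmb4.

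In the alpha ring 5 of 7 genes rose. Psma7 led with 0.36 ± 0.02 and Psma6 followed with 0.34 ± 0.02. Over the 36 libraries of each treatment from CT12 to CT44, Psma7 ranged from 53.8 to 78.4 CPM in control livers (median 66.1) and from 62.0 to 117 in fasted ones (median 85.7), and the 4 fasted mice lay above the 4 control mice at 7 of the 9 times. Psma1 (0.01 ± 0.02, adjusted p = 0.674) was not called, and Psma4 was the 1 standard subunit that fell, by 0.05 ± 0.02 on the log2 scale (adjusted p = 0.0307). The call for Psma4 did not hold with DESeq2's size factors (-0.04), with upper quartile scaling (-0.04) or without a low-count filter (-0.06). Nor did it with sex left out of the fit (-0.05) or in separate fits of males (-0.03) and of females (-0.07). It was also lost without male replicate 1 (-0.06), male replicate 2 (-0.05) or female replicate 2 (-0.02). In the fit of all libraries the female contrast was called (-0.07 ± 0.03) and the male one was not (-0.03 ± 0.03).

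All 6 ATPases of the base rose, from 0.23 for Psmc2 and 0.24 for Psmc5 to 0.45 ± 0.02 for Psmc1 (adjusted p = 8.03e-21), the third largest rise of the 50. Psmc1 was at 75.4 to 84.1 CPM in the 4 control livers at CT44 and at 116, 118, 138 and 149.6 in the fasted ones. Every fasted liver exceeded every control liver. Among the other base subunits, Psmd4, the ubiquitin receptor of the base, rose by 0.70 ± 0.03 (1.63-fold, adjusted p = 4.48e-24), and the scaffold subunits Psmd1 (0.25) and Psmd2 (0.16) by less. Psmd4 was at 76.3 and 71.9 CPM in control males, 74.3 and 63.1 in control females, 135 and 161 in fasted males and 125 and 140 in fasted females at CT44, where its level had risen 1.96-fold.

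The lid showed the same direction in 7 of its 8 genes, from 0.15 ± 0.02 for Psmd7 to 0.38 ± 0.03 for Psmd8. Psmd14, the enzyme that removes ubiquitin chains from the substrate, had a mean difference of 0.03 ± 0.03 (adjusted p = 0.338), since it was lower in fasted livers at CT16 (-0.40) and higher at CT32 (0.27), CT36 (0.28) and CT44 (0.23), each of which was called. The lid subunits Psmd3, Psmd6 and Psmd12 rose by 0.34 to 0.36. In 80 libraries, after the group means were taken out, the 465 pairs of standard subunits had a median correlation of log2 CPM of 0.42 (range -0.34 to 0.79), and the 155 pairs of a standard with an interferon-inducible gene one of -0.20 (range -0.69 to 0.43). These are descriptions of values that share libraries, depth and scaling.

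Psmd9 rose by 1.02 ± 0.04 (2.03-fold, adjusted p = 8.02e-25), the largest rise of the 50. From CT12 to CT44 it held 23.3 to 39.9 CPM in 36 control livers (median 30.2) and 38.4 to 104 in 36 fasted livers (median 62.8). The 4 fasted livers lay above the 4 control livers at 9 of the 9 times, CT12 included, although the difference at CT12 was not called (0.26). At CT44 the control livers held 27.2, 28.2, 31.8 and 33.3 CPM and the fasted ones 69.7, 69.9, 71.4 and 96.9, the last a female that stood apart from the other 3. Psmd9 lies on chromosome 5 (123169413 to 123250131, plus strand, GENCODE M21 on GRCm38) and overlaps Hpd, a tyrosine-degrading enzyme on the opposite strand with 0 bases of shared exon, a mean of 2293 CPM and a rise of its own of 0.47. It also shares 1849 exonic bases with Gm26745 on the opposite strand, for which no value is given here. In the exon count table the 10 bins of Psmd9 with over 10000 counts had fasted to control count ratios between 1.73 and 1.85. The counts of these 10 bins thus rose by similar ratios. Bins with fewer counts varied more, with 1.37 in bin 2, 2.21 in bin 3 and 1.81 in bin 13. These are ratios of raw counts summed over libraries and not scaled to library size, unlike the 2.03-fold rise above. The part that these neighbours may have in the counts was not tested.

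The other 2 assembly chaperones of the base, Psmd5 (-0.20 ± 0.03) and Psmd10 (-0.19 ± 0.03, also known as gankyrin), fell, opposite to Psmd9. Psmd5, at a mean of 29.9 CPM, overlaps Cutal on the opposite strand with 0 bases of shared exon. Cutal was at 31.8 CPM with a fasting difference of -1.205, and its part in the counts of Psmd5 was not tested. None of the 4 assembly chaperones of the 20S core rose: Psmg2 (-0.23 ± 0.04), Psmg3 (-0.14 ± 0.05) and Psmg1 (-0.14 ± 0.03) fell, and Psmg4 was not called (0.02 ± 0.05). Psmg3 was the least firm of these, at 3.52 CPM on average, with no single time called. Pomp, the maturation factor that completes the core and that has no Psm name, fell by 0.20 ± 0.03.

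**Figure D2:**
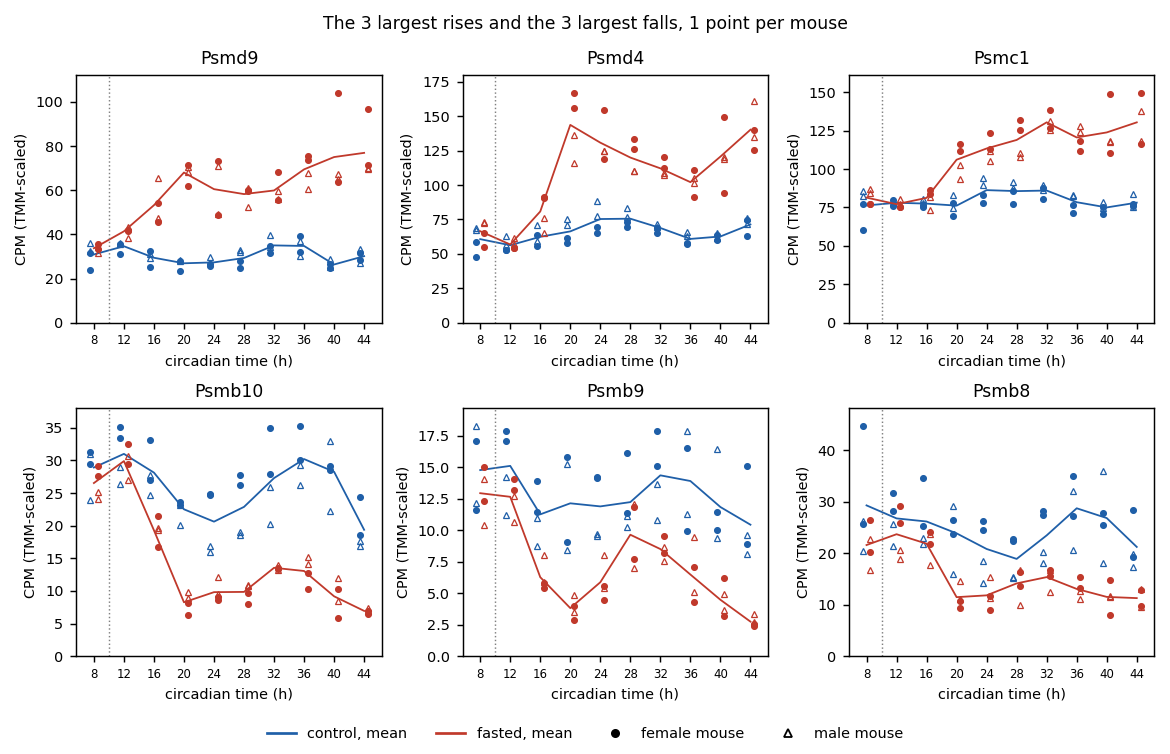
Levels in CPM (TMM-scaled, y axis from 0) over circadian time in h for the 3 largest rises (Psmd9, Psmd4, Psmc1) and the 3 largest falls (Psmb10, Psmb9, Psmb8), with 1 point per mouse (filled circles for females, open triangles for males), lines through the means of 4 mice in control (blue) and fasted (red) livers, and a dotted line where food was removed. Control and fasted points mix at CT8, and from CT20 the fasted means of Psmd9, Psmd4 and Psmc1 lie above the control means and those of Psmb10, Psmb9 and Psmb8 below them.

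Psmb10 fell by a log2 of 1.07 ± 0.04 (to 0.477 of the control level, adjusted p = 1.27e-25), Psmb9 by 1.03 ± 0.08 (to 0.49, adjusted p = 2.83e-15) and Psmb8 by 0.72 ± 0.07 (to 0.605, adjusted p = 5.08e-13). Their products take the places of those of Psmb7, Psmb6 and Psmb5. At CT44 Psmb10 was at 16.8, 17.6, 18.6 and 24.4 CPM in control livers and at 6.48, 6.89, 6.94 and 7.43 in fasted ones. The highest fasted liver was below the lowest control liver, and the same held at 8 of the 9 times. Psmb9 held 8.15 to 15.1 CPM in the control livers and 2.36 to 3.36 in the fasted livers of CT44, and was apart at 7 of the 9 times. Psmb8 was apart at 5 of the 9, with 17.3 to 28.4 against 9.56 to 13.1 CPM at CT44.

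Psmb9 shares 212 exonic bases with Tap1, a peptide transporter gene on the opposite strand at a mean of 23.1 CPM, which fell by 0.34 ± 0.06. How the counting treated such shared bases is not given in the sources used here. Before food was taken away, at CT8, Psmb8 and Psmb9 were already at a log2 of -0.41 and -0.19 in the group to be fasted. Neither difference was called, and these starting differences were not subtracted from the later ones. The control livers at CT8 include the library with 31.3% Rn18s-rs5, and its part in these differences is not given here. Psmb8 held 20.5 to 44.69 CPM in the 4 control livers of CT8 and 16.85 to 26.55 in the 4 livers of the other group.

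The share of immunoproteasome subunits among the transcripts of all 6 catalytic genes, with counts divided by exonic length, lay between 12.7% and 27.1% in 36 control livers (median 20.5%) and between 5.09% and 24.8% in 36 fasted livers (median 9.30%) from CT12 to CT44. At CT8 the share was 16.6% to 29.2% in the 4 control livers and 16% to 22.0% in the 4 livers of the other group, which overlapped. The highest control value, 29.2%, was that of the library with 31.3% Rn18s-rs5. At CT20 it was 15.3% to 23.5% in control and 7.02% to 9.69% in fasted livers, and at CT44 14.2% to 21.9% and 5.09% to 6.30%. The log2 ratio of the summed counts of Psmb8, Psmb9 and Psmb10 to those of Psmb5, Psmb6 and Psmb7 differed by -1.05 between the treatments (-1.11 with counts per length), and by -1.099 to -1.001 with each replicate number of each sex left out in turn.

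**Figure D3:**
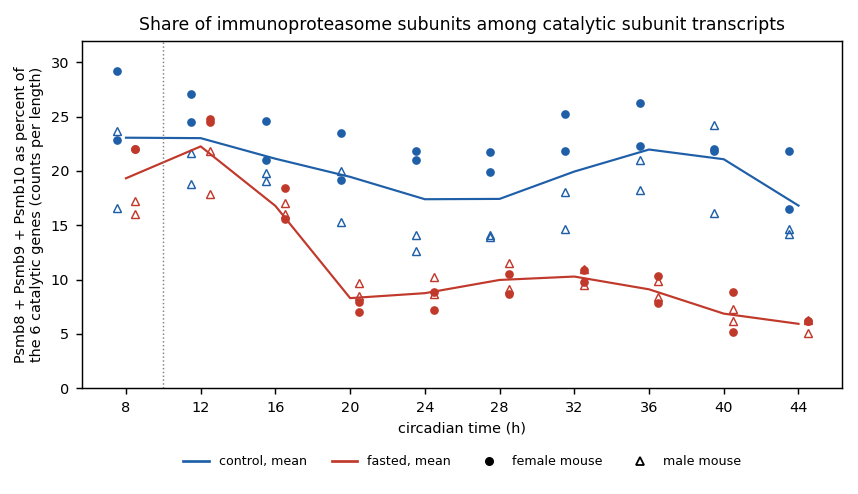
Psmb8, Psmb9 and Psmb10 as a percent of the summed length-divided counts of the 6 catalytic subunit genes (y axis from 0), by circadian time in h, with 1 point per mouse (filled circles for females, open triangles for males) and lines through the mean of 4 mice in control (blue) and fasted (red) livers. The fasted livers reach 7.02% to 9.69% at CT20 and 5.09% to 6.30% at CT44, while the control livers lie at 12.7% or more from CT12.

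The PA28 subunits fell with them, Psme2 by 0.57 ± 0.04 and Psme1 by 0.36 ± 0.05, and so did Psme2b, an intronless copy of Psme2 on chromosome 11, by 0.60 ± 0.04. Reads from Psme2 and Psme2b may have been split between the near-identical copies, so that the value of Psme2b is uncertain. Psme1 shares 14 exonic bases with Emc9 on the other strand (-0.38). The other activators went the opposite way: Psme4, the subunit of PA200, rose by 0.11 ± 0.02 and Psme3, the subunit of the nuclear PA28 gamma, by 0.06 ± 0.02 (adjusted p = 0.0172), although in males alone the difference of Psme3 was -0.05. Psmf1, the regulator PI31, rose by 0.18 ± 0.03. Its difference was 0.31 ± 0.04 in females and 0.05 ± 0.04 in males, where it was not called.

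The remaining genes add little. Psma8, the alpha subunit of the testis, was at 0.727 CPM on average and not called (0.14 ± 0.14), and Psmc3ip and Psme3ip1 are named after subunits but encode no subunit. Psmc3ip, at 0.26 CPM, fell by 0.64 ± 0.18, and Psme3ip1 was at 17.4 CPM and not called (log2 of -0.004 ± 0.024). The value of Psmc3ip is uncertain, since 385 of its exonic bases are shared with Mlx, which was at 31.8 CPM.

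Most markers of the other liver cell types fell in the fasted livers as well, those of immune cells among them. Of 8 Kupffer cell markers 7 fell and of 10 leukocyte markers 6 fell, with medians of -0.35 and -0.42, against -1.03 for the 3 immunoproteasome genes. The summed level of the Kupffer cell markers was 273 to 929 CPM in control livers (median 426) and 201 to 592 in fasted ones (median 324), and that of the leukocyte markers 66.3 to 199 (median 105) and 37.5 to 154 (median 75.6), and no marker of any list was at 0 throughout. Of the cholangiocyte markers 4 of 5 fell (median -0.46), of the stellate cell markers 4 of 6 fell and 1 rose (-0.36), and of the endothelial markers 3 of 6 fell and 2 rose (-0.10). In these whole tissue samples fewer cells of a type and less RNA per cell cannot be told apart, and the part of the markers in the fall was not tested. Within groups, over 80 libraries, the correlation of log2 levels with the Kupffer cell sum was 0.55 for Psmb8, 0.43 for Psmb9 and 0.49 for Psmb10, and 0.32 for Psme1 and 0.39 for Psme2, as a description of libraries that share depth and scaling.

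The first calls among the 50 genes came at CT16. Few of all genes were called before that time either. At CT8 and CT12 none of the 50 genes was called by edgeR, DESeq2 or limma, with 3 and 7 at an unadjusted p under 0.05, where 0.118% of all genes were higher and 1.21% lower at CT8, and 0.92% and 0.684% at CT12. At CT16, 6 h without food, 3 genes were higher (11.5% of all genes) and 9 lower (11.9%). The risers were Psmd9 (0.85), Psmd4 (0.36) and Psma6 (0.18), and the genes that fell included Psmb9 (-0.84), Psmb10 (-0.54), Psme2 (-0.31), the deubiquitinase Psmd14 (-0.40) and 4 assembly chaperones. The standard subunits as a whole had a median log2 difference of -0.04 at this time.

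After 10 h without food, at CT20, 25 genes were higher (17.5% of all genes) and 8 lower (19.1%), and the median of the standard subunits was 0.20. It was 24 and 5 genes at CT24 (12.2% and 11.9% of all genes), 19 and 5 at CT28 (9.88% and 11.1%) and 27 and 5 at CT32 (8.4% and 9.3%). Later it was 28 and 8 at CT36 (12.8% and 14% of all genes), 30 and 9 at CT40 (18.7% and 21.2%) and 33 and 8 at CT44 (18.7% and 20.7%). The median of the standard subunits dipped to 0.18 at CT28 and then stood at 0.31, 0.35, 0.45 and 0.49 at CT32 to CT44, when 30 of the 31 were called higher. Summed over the 9 times there were 246 calls, against 163 in a fit without male replicate 1 and 162 without male replicate 2.

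For 38 of the 50 genes the difference varied with time by the joint test, as it did for 33.7% of all genes tested. They included 30 of the 31 standard subunits and all 3 immunoproteasome genes, and 0 of the 4 chaperones of the 20S core. Psmc4, an ATPase of the base, gave the smallest p (adjusted p = 8.23e-09), with 59.6, 64.5, 69.1 and 69.1 CPM in control and 56.1, 57.5, 57.6 and 65.6 in fasted livers at CT16, and with 59.9 to 77.0 against 92.2 to 113 CPM at CT44. The groups overlapped at the earlier time and stood apart at the later one. Psmb10 (adjusted p = 2.82e-08) and Psma7 (adjusted p = 3.4e-08) came next. Without male replicate 1 the count was 21, all of them among the 38, and without male replicate 2 it was 14, likewise.

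The response to fasting differed between the sexes for part of the genes. For 9 genes the difference was more positive in females (5.35% of all genes tested). For 5 it was more negative (7.02%), a count near the background. In females the standard subunits had a median log2 difference of 0.28 and in males one of 0.19, and 7 of the 31 were called for the difference between the sexes: Psmd8, Psmd13, Psmd4, Psmc4, Psmc1, Psmb4 and Psmb3. The other more positive genes were Psme3 (0.182 in females and -0.052 in males) and Psmf1 (0.313 and 0.046). The more negative ones were Psme2, Psmb10, Psme2b, Psme1 and Psmg1 (-0.235 in females and -0.051 in males for Psmg1).

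Psme2 gave the smallest p for this difference (-0.46 ± 0.07, adjusted p = 2.86e-05). In females it went from 31.6 to 44.5 CPM in 18 control livers (median 39.9) to 11.4 to 40.3 in 18 fasted livers (median 21.1), and in males from 30.4 to 43.5 (median 34.9) to 23.9 to 35.4 (median 26.7). The ranges overlap in both sexes, since they hold all times. Psmb10 fell by 1.32 ± 0.06 in females and 0.82 ± 0.06 in males, and Psmd8 rose by 0.53 ± 0.04 and 0.23 ± 0.04. The number of these calls depended on the male libraries: without male replicate 1 only Psme2 and Psmb10 were called, without male replicate 2 those and Psme3 and Psmf1, against 12 and 14 genes without female replicate 1 and 2.

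**Figure D4:**
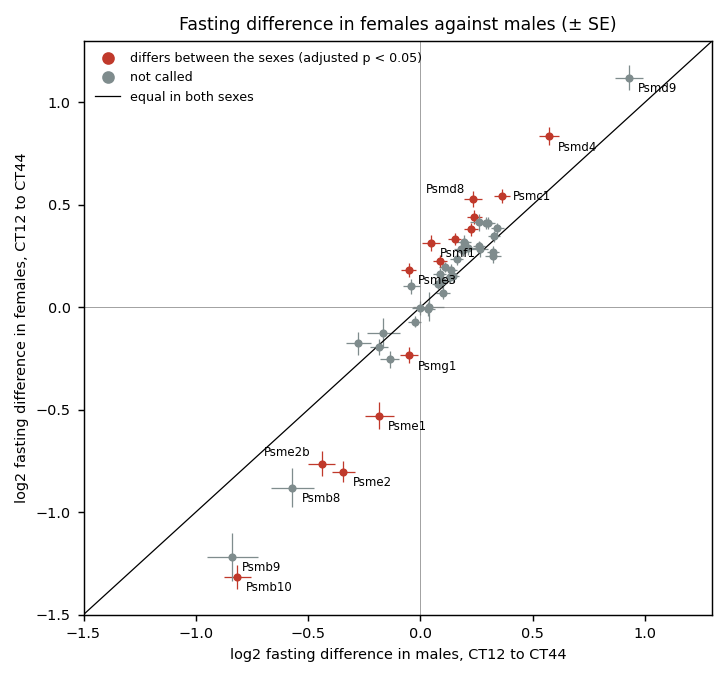
Log2 fasting difference in females (y axis) against that in males (x axis), both as the mean of CT12 to CT44 with standard errors as bars, for 48 of the 50 genes (Psma8 and Psmc3ip, with low counts, are left out). Red points are genes whose difference depended on sex at an adjusted p under 0.05, and the line marks equal differences: Psme2, Psmb10, Psme1 and Psme2b lie below it, and Psmd4, Psmd8, Psmf1 and Psme3 above it.

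Females started from lower levels of the standard subunits. Over the 40 control livers, 29 of the 50 genes were lower in females (18.6% of all genes tested were) and 4 higher (20.6%), and 24 of the 31 standard subunits were among the lower ones, with a median log2 difference (female minus male) of -0.11, where that of all genes was 0.01. The smallest p was that of Psmb7 (-0.24 ± 0.02, adjusted p = 2.33e-11), with 64.9 to 91.2 CPM in 20 females (median 78.0) and 83.6 to 104 in 20 males (median 93.9), which overlapped a little. Psmd13 (-0.26 ± 0.03, adjusted p = 1.53e-10) also overlapped, at 35.0 to 45.8 and 44.2 to 56.9 CPM. Psmb7 shares 405 exonic bases with Nek6 (mean of 45.4 CPM, fasting difference -0.42) and Psmd13 342 with Sirt3 (84.2 CPM, 0.33), both on the opposite strand, and the part of these neighbours was not tested. For Psme4 (-0.28 ± 0.03, adjusted p = 5.26e-10) the highest female, at 134 CPM, lay below the lowest male, at 135. The 4 genes higher in females were Psmb8 (0.38 ± 0.09), Psmb10 (0.29 ± 0.06), Psmg4 (0.16 ± 0.07) and Psme2 (0.12 ± 0.05).

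In the same control livers all 8 Kupffer cell markers were higher in females, with a summed level of 386 to 929 CPM (median 489) against 273 to 564 (median 330) in males, and 6 of 10 leukocyte markers were, with 84.7 to 246 (median 124) against 66.3 to 190 (median 89.1) CPM. So were 5 of 6 endothelial, 5 of 6 stellate cell and 3 of 5 cholangiocyte markers. The part of all these markers in the higher female level of Psmb8 and Psmb10 was not tested. Without male replicate 1, 20 of the 33 genes that differed between the sexes were called.

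In control livers 30 of the 50 genes had a 24 h rhythm, where 41.8% of the genes tested did. The rhythms were shallow, with a median peak-to-trough log2 difference of 0.24 for these 30 against 0.50 for all rhythmic genes. Of them 11 reached a peak-to-trough ratio of 1.2, and the share of all rhythmic genes that did is not given here. The peaks fell into separate parts of the cycle. All 19 rhythmic standard subunits had their fitted peak between CT21.2 and CT7.83, from the late active phase into the rest phase of these nocturnal animals, a span from CT21 to CT8 that held 47.8% of all rhythmic genes. Psmb9, Psmb10, Psme1, Psmb8 and Psme2 peaked from CT9.17 to CT13.6, around the start of the active phase, where 21% of all rhythmic genes did between CT9 and CT14. The windows were drawn after the peaks were seen.

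Psmd11, a lid subunit, had the smallest p (peak-to-trough log2 of 0.63, peak at CT23.3, adjusted p = 1.12e-10). Its control livers held 71.5, 71.9, 73.7 and 79.5 CPM at CT12 and 109, 110.2, 119 and 125 at CT24, with no overlap. Psmb10 (0.66, peak at CT11.7, adjusted p = 3.94e-08) went the other way, from 26.4 to 35.2 CPM at CT12 to 16, 16.9, 24.8 and 24.8 at CT24, where both males lay below both females. Psma2, of the alpha ring, moved less (0.26, peak at CT5.84, adjusted p = 1.26e-06), from 43.4 to 44.8 CPM at CT16 to 47.9 to 55.9 at CT28. With females alone 9 genes were called rhythmic and with males alone 24, and the shares of all genes in these fits are not given here.

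**Figure D5:**
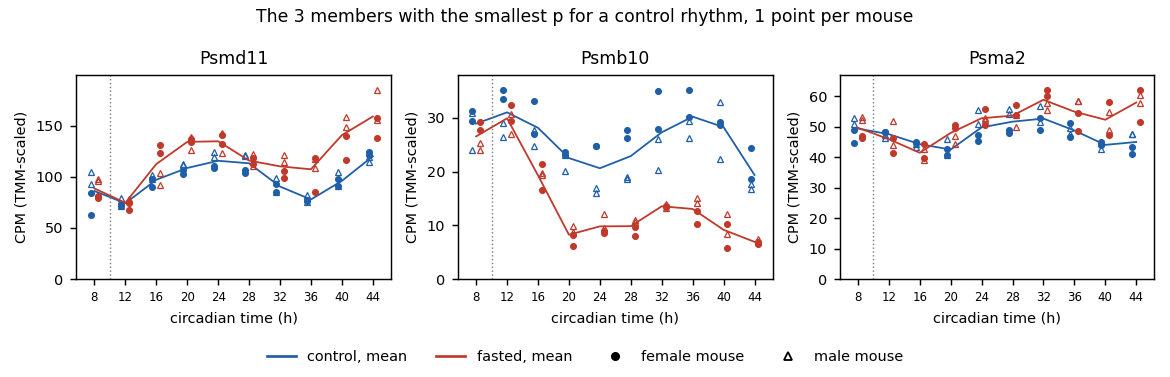
Levels in CPM (TMM-scaled, y axis from 0) over circadian time in h of the 3 genes with the smallest p for a rhythm in control livers, with 1 point per mouse (filled circles for females, open triangles for males), lines through the means of 4 mice in control (blue) and fasted (red) livers, and a dotted line where food was removed. Control Psmd11 runs from 71.5 to 79.5 CPM at CT12 to 109 to 125 at CT24, Psmb10 is low around CT24 and at CT44, and Psma2 is lowest near CT20.

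In the fasted livers, with a straight change over time taken out, 37 of the genes were rhythmic (47.1% of the genes tested), 26 of them also in control livers. Without that straight change 23 were. The rhythm differed between the treatments for 9 genes, where 23.2% of the genes tested did, a smaller share than the background. Psmd9 (adjusted p = 0.000219) peaked at CT9.93 in control and CT20.55 in fasted livers, and its fasted rhythm alone was not called (adjusted p = 0.0538). Psmb9 (adjusted p = 0.000424) had a peak-to-trough log2 of 0.42 in control and 1.51 in fasted livers, at CT9.17 and CT7.84. The others were Psma5, Psmd4, Psmb10, Psme3, Psmg1, Psmd12 and Psme2b. The count was 4 without male replicate 2, 5 without female replicate 1 and 4 without female replicate 2.

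Exon usage under fasting was called for 7 of the 49 genes that could be tested, as for 14.3% of all genes tested, which is no more than the background. Psma4 had the smallest p (adjusted p = 1.23e-13), followed by Psme4 (adjusted p = 4.17e-05) and Psmd5 (adjusted p = 6.42e-05). The bins behind these calls held few counts: bin 7 of Psma4 took 0.39% ± 0.10 of the counts of its gene in control livers and 0.66% ± 0.15 in fasted livers (SD, n = 36 each), bin 54 of Psme4 0.019% ± 0.014 and 0.061% ± 0.073, and bin 19 of Psmd5 1.12% ± 0.45 and 0.74% ± 0.37. With at least 10 counts in every library asked of each bin, 1 of 47 genes tested was called. Without male replicate 1, and likewise without female replicate 1, 3 genes were called. Among the exon counts, 3 columns of fasted CT40 were matched best by another library of the same group, so that the 4 were fitted as 1 group without sex.

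Other genes of the pathway that carry no Psm symbol moved partly with the subunits. Of 9 further parts and partners 5 rose and 2 fell. Adrm1, the second ubiquitin receptor of the base, rose by 0.36 ± 0.03, close to the ATPases, and Usp14, a deubiquitinase bound to the particle, by 0.10 ± 0.02, whereas Sem1, a small subunit of the lid, fell by 0.10 ± 0.02. Of 10 regulators of proteasome gene transcription 7 rose and 2 fell, among them Nfe2l1 (0.32 ± 0.06) and Ddi2 (0.37 ± 0.03), the protease that activates its product. Maff, a small Maf partner of such factors, rose the most in that list (1.67 ± 0.16), at a mean of 5.41 CPM over all libraries. Of 14 genes of ubiquitin supply and shuttling 9 rose and 2 fell, led by the ubiquitin gene Ubb with 0.73 ± 0.04. The medians of the 3 lists were 0.06, 0.21 and 0.11, beside -0.02 for all genes.

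In the list of MHC class I antigen processing 7 of 10 genes fell and 2 rose, with a median of -0.28. Irf1, a transcription factor that interferon induces, fell the most (-0.76 ± 0.07) and Tap1 fell by 0.34 ± 0.06, while the class I heavy chain gene H2-K1 was not called (-0.04 ± 0.04). Within groups the correlation with Tap1 over 80 libraries was 0.64 for Psmb8, 0.74 for Psmb9 and 0.24 for Psmb10, and near 0 for Psme1 and Psme2 (-0.047 and -0.005). Psmb9 and Tap1 share bases, as given above.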

How the data were processed

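The authors deposited raw read counts per gene and per exon bin for 80 mouse liver libraries. The submitters' processing notes name Trimmomatic, HISAT2, DESeq2 and GRCm39 without versions, and the counting program is not given in the sources used here. A normalised table was not used. Gene coordinates and lengths are those of GENCODE M21 (GRCm38), so no position was carried over to the build of the counts. Groups came from the titles. Counts were scaled by TMM, filtered by filterByExpr and fitted with edgeR 4.0.16 in R 4.3.3 by quasi-likelihood with Benjamini-Hochberg adjustment over all genes (adjusted p under 0.05). Each combination of treatment, time and sex had its own mean in the fit, whose contrasts gave the fasting difference, its dependence on time and sex, and the control sex difference. Rhythms were tested with cosine and sine terms of 24 h, and exon bins against their gene with Simes p-values per gene. DESeq2 1.42.0, limma 3.58.1, other scalings and filters, a replicate block and leaving out each replicate number of a sex were the alternatives. The code was tested on simulated data. The members and lists were chosen with earlier results of these data known. Named genes were the 3 largest rises and 3 largest falls, the catalytic subunits, the 3 smallest p-values of each other comparison, the lowest and highest of each class, 7 partners (Adrm1, Sem1, Pomp, Usp14, Nfe2l1, Ddi2 and Tap1) and the largest called change in each pathway list. Further genes were named after their values were seen. Exon counts assigned to no bin, 8.28% to 25.9% of a library, were left out.

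Samples with the same replicate number were compared across groups in 20 pairs. The correlation of their deviations from the group means was -0.06 to 0.25 (median 0.002), with 1 pair over 0.1, so the numbers were not taken to pair the mice.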

Additional observations from a re-analysis of the deposited data

Results flagged for a closer look

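In 3 of the 56 groups of 4 libraries tried, 1 library stood far from the other 3, and chance gives about 1 in 20. Psmd9 was at 96.9 CPM in 1 fasted CT44 female, where the nearest library was at 71.4. Psmc4 was at 65.6 CPM in 1 fasted CT16 female, with the nearest at 57.6. The immunoproteasome share by length was 5.09% in 1 fasted CT44 liver, with the nearest at 6.14%.

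The fasting difference of 14 genes differed between the sexes in a test of the difference itself. It was more positive in females, on the log2 scale, by 0.295 for Psmd8, 0.266 for Psmf1, 0.261 for Psmd4, 0.234 for Psme3, 0.198 for Psmc4, 0.181 for Psmd13, 0.178 for Psmc1, 0.154 for Psmb4 and 0.136 for Psmb3. It was more negative in females for Psmb10 (-0.501), Psme2 (-0.46), Psme1 (-0.346), Psme2b (-0.323) and Psmg1 (-0.184). Without male replicate 1 the calls left were those of Psmb10 and Psme2.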

How the results depend on the processing

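Of 159 alternative values of the main results, 136 kept within 1.5 times of the count or within the spread, and 23 moved. The shares of all genes under these alternatives are not given here. With a change of at least 1.2-fold, 22 genes were called for the mean fasting difference instead of 45 (15 higher and 7 lower), and 41 to 44 with a replicate number of a sex left out. Calls at single times were 246, and 162 to 223 with one left out. The difference varied with time for 38 genes, and for 14 to 36. It depended on sex for 14 genes, for 9 at an adjusted p under 0.01, and for 2 to 14. The control sex difference was called for 33 genes, for 20 without a low-count filter, and for 20 to 31. Control rhythms were called for 30 genes, 9 with females alone, 11 when the ratio of peak to trough had to reach 1.2, and 21 to 30. They were called for 34 without the control CT8 library rich in Rn18s-rs5. Fasted rhythms were called for 37, 23 without the linear change, and 25 to 30. The rhythm differed for 9 genes, 4 at an adjusted p under 0.01, 5 without a low-count filter, and 4 to 9. Exon usage was called for 7 genes, 1 with at least 10 counts in every library, and 3 to 6. The mean fasting difference of Psme3 was 0.065 overall and -0.052 in males alone. The causes were not tested. Fits with a replicate number left out also held fewer libraries, and the part of that was not tested either. With the replicate block the counts were 45 for the mean, 244 for single times, 38 for time, 14 for sex, 33 for the control sex difference, 29, 35 and 9 for the rhythms and 7 for exon usage, and the block moved none of these counts by over 1.5 times. Other scalings shifted the mean fasting differences of the proteasome genes by 0.008 to 0.013 (log2). Low counts limit Psmc3ip and Psma8, and 2 mice per sex and time limit the single times.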
